A study of Mus musculus with 24 samples.

Results

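The nuclear genes for the subunits and assembly factors of mitochondrial complex I were followed across hearts of 3 inbred mouse strains, both sexes and 2 diets. Members were taken by symbol, as every annotated gene whose symbol begins with Nduf, and 45 of the 20961 genes in the table met that rule. No symbol carried a pseudogene suffix, so 0 were dropped, and all 45 were among the 17203 genes that passed the filter on low counts. The study measured polyA RNA from whole heart in 24 libraries, with 2 libraries in each of 12 groups of strain, sex and diet. NZO/HlLtJ is an inbred strain prone to obesity and diabetes, CAST/EiJ is a wild-derived inbred strain, and C57BL/6J is the common laboratory strain and the source of the mouse reference genome. All animals were labelled wild type. Each strain received a diet with 44% of fat, described as high in fat and sugar, or a control diet with 10% of fat, both labelled as holding fiber, from 6 weeks of age, and tissue was taken at 15 weeks. Each strain therefore has 8 libraries, 4 on each diet and 4 of each sex. Nothing in the labels ties a library to an animal of its own, so p-values measure the spread between these libraries, which may be technical.

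Complex I takes electrons from NADH, passes them along a chain of iron-sulfur clusters to ubiquinone and pumps protons across the inner mitochondrial membrane. The catalytic subunits of the peripheral arm, which stands in the matrix, are encoded in the nucleus, and the mt-Nd core subunits of the membrane arm in mitochondrial DNA; accessory subunits surround that core, and assembly factors join the modules without staying in the finished enzyme. The heart is rich in mitochondria, and the enzyme supplies much of its respiratory electron flow. Of the 45 genes, 36 encode core or accessory subunits and the acyl carrier protein. They are 7 core subunits of the peripheral arm, 9 accessory subunits of that arm, 9 of the proximal and 10 of the distal membrane arm, and Ndufab1, the mitochondrial acyl carrier protein. Ndufa4, which was once counted with complex I and is now assigned to cytochrome c oxidase, and its hypoxia-responsive relative Ndufa4l2 make up 2 more. The remaining 7 are assembly factors. Ndufb1 and Ndufaf8 were not analysed here.

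Library totals ran between 30205073 and 52254058 estimated counts, and the 45 genes took between 0.698% and 0.864% of them. Mitochondrially encoded genes took 25.8% to 28.8% in C57BL/6J, 20.2% to 23.4% in CAST/EiJ and 20.9% to 23.9% in NZO/HlLtJ libraries. Levels below are CPM, counts over library sizes scaled by TMM (trimmed mean of M values). The 10 cardiomyocyte markers summed to between 64760 and 79670 CPM in NZO/HlLtJ, between 63930 and 79080 CPM in CAST/EiJ and between 68290 and 74090 CPM in C57BL/6J libraries, while the 3 skeletal muscle markers that passed the filter summed to at most 2.81 CPM in any library. The sample identifiers fall into 3 ranges of numbers, numbered 1 to 3 here, and range 1 holds no NZO/HlLtJ library; the ranges are used below as a possible batch, although the labels do not call them one. Between the 2 libraries of a group the Nduf genes varied less than most genes, with a median standard deviation of 0.074 on the log2 scale, against 0.18 over all genes tested.

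The 45 genes lie on 16 chromosomes, with Ndufa1 and Ndufb11 on the X. Another annotated gene overlaps 22 of them. For 11, more than 10% of the 50-base stretches of the longest transcript also occur, on either strand, in other genes' transcripts. The share was 80.9% for Ndufaf2, which overlaps B230220B15Rik on the other strand, 39.7% for Ndufs3, 37% for Ndufb4, 34.1% for Ndufb6 and 31.1% for Ndufs5, and between 12.3% and 28.5% for Ndufa13, Ndufb9, Ndufb11, Ndufa12, Ndufb5 and Ndufab1. How the counting divided such reads, and whether it used strand, is not given in the sources used here, so values of those 11 are uncertain. It is likewise not given whether reads of NZO/HlLtJ and CAST/EiJ were aligned to the C57BL/6J reference or to strain genomes.

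The promoters of 6 genes on which the strain results turn are shown, from 250 bases before to 50 bases after the annotated start, in the C57BL/6J reference (RefSeq, GRCm38.p6). They are Ndufa3 (chr7:3617123-3617422, plus strand), Ndufs6 (chr13:73328433-73328732, minus strand), Ndufc1 (chr3:51408906-51409205, minus strand), Ndufaf5 (chr2:140170396-140170695, plus strand), Ndufb2 (chr6:39592315-39592614, plus strand) and Ndufv1 (chr19:4012706-4013005, minus strand). Capitals mark AAGATGG, a YY1 motif, in Ndufa3, Ndufs6 and Ndufc1, 2 overlapping matches of the NRF1 motif GCGCATGC, 1 on each strand, in Ndufaf5, and the nuclear receptor half-site AAGGTCA in Ndufb2; the Ndufv1 window holds no match to a motif searched.
Ndufa3: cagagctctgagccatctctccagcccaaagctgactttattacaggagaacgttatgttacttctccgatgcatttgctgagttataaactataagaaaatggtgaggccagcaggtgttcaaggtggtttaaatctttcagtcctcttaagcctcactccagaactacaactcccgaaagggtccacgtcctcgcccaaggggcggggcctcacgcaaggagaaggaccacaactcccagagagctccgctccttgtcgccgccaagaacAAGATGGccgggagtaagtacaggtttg
Ndufs6: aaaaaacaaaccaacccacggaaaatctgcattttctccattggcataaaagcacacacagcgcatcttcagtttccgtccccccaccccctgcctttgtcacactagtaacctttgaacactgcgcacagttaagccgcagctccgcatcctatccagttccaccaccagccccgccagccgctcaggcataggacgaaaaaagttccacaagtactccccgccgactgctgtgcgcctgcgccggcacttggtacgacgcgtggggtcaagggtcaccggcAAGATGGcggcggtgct
Ndufc1: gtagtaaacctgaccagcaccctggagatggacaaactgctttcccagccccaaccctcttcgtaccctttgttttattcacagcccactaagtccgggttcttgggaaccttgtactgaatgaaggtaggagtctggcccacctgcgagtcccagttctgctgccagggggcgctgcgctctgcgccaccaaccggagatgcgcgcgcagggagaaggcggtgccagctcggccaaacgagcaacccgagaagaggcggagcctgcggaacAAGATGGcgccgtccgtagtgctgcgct
Ndufaf5: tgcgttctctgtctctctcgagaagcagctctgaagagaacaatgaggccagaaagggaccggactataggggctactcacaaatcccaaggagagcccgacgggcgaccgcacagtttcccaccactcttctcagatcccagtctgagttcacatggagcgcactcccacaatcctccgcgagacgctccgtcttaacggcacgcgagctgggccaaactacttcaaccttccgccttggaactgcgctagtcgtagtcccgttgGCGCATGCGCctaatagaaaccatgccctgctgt
Ndufb2: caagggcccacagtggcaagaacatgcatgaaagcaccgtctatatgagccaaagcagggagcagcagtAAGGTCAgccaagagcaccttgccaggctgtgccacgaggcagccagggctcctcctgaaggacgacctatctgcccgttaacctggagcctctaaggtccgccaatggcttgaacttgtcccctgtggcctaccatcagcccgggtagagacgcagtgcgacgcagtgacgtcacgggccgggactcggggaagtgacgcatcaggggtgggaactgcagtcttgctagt
Ndufv1: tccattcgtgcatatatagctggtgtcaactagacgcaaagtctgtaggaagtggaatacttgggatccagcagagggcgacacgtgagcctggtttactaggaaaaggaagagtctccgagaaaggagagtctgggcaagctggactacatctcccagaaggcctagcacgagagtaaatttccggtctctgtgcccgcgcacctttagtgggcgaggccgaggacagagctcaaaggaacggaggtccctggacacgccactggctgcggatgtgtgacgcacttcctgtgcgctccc
Both strands of 41 promoters of 39 Nduf genes were searched. Another 6 genes, Ndufaf6 and Ndufs1 among them, had no promoter entry and were not searched. The YY1 motif stood in 17.1% of the Nduf promoters, namely those of Ndufa3, Ndufa9, Ndufb8, Ndufc1, Ndufs4, Ndufs6 and Ndufs7, and in 6.34% of all 32851 promoters. GCGCATGC stood in 12.2%, in Ndufa6, Ndufa8, Ndufa11, Ndufaf4 and Ndufaf5, and in 2.71% of all promoters. The ETS motif CCGGAAG stood in 12.2%, against 8.86% of all, and AAGGTCA in 7.32%, against 4.72% of all. These matches describe letters in the reference and not occupied sites.

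Per length, most genes for the enzyme itself stood above those for its assembly. The median level of the 7 core subunits was 106 CPM per kb of exon, and that of the accessory subunits was 82.9 in the peripheral arm, 107 in the proximal and 113 in the distal membrane arm, against 7.65 CPM per kb for the 7 assembly factors. With the longest transcript as length, the core subunits Ndufs1 and Ndufs3 went from 80.3 to 244 and from 106 to 220 CPM per kb. The accessory subunit Ndufa7 went from 40.8 to 116.5, while Ndufa8 kept 233. The order of the subunit classes therefore rests on the length used. Near the top stood Ndufa4, at 258 ± 27.3 CPM per kb (SD, n = 24), and Ndufb9 of the distal membrane arm, at 252 ± 14.3 CPM per kb, and these neighbours lie within each other's spread. At the other end stood Ndufaf2, an assembly factor related in sequence to the subunit Ndufa12, at 2.82 ± 0.557 CPM per kb. Among the subunits the lowest was Ndufb2, at 14.5 ± 2.23 CPM per kb over 5628 annotated bases of exon, although it averaged 81.8 CPM. Over its longest transcript it stood at 18.7 CPM per kb. Ndufaf6, at 7.24 ± 2.22 CPM per kb, had a wide spread for its level, and CAST/EiJ stands apart in it below.

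**Figure D1:**
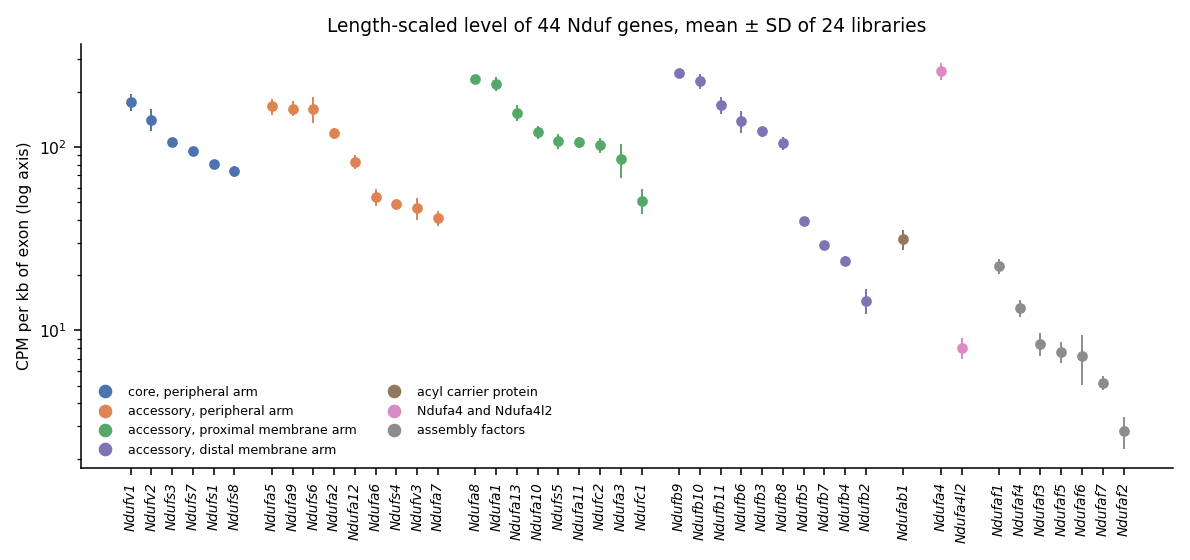
Mean level of 44 Nduf genes per kb of exon on a log axis, with bars of 1 SD over 24 libraries, grouped by role. The 7 assembly factors and Ndufa4l2 lie at or below 22.4 CPM per kb, and most subunits lie above them.

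NZO/HlLtJ hearts had less RNA of a good part of the Nduf genes than C57BL/6J hearts, by small amounts. By edgeR's quasi-likelihood test with Benjamini-Hochberg adjustment over all genes, 16 of the 45 were lower and 3 were higher, and the other 26 did not pass at an adjusted p of 0.05. Over all genes tested, 17.6% were called lower and 17.9% higher, so the Nduf share was above that background for lower calls and below it for higher ones. Between libraries of a group the Nduf genes varied less than most genes (median SD 0.074 against 0.18). Shares here and in the strain contrasts below were not set against genes of like spread. The median log2 fold change of the 45 was -0.06, against 0 over all genes, and the values ran between -0.51 and 0.36. In bulk tissue, fewer cells of a type and less RNA per cell cannot be told apart. Scaling by library totals without TMM factors gave 13 lower and 8 higher with a median of -0.01, and among all genes called it moved the share that was higher to 65.03%, against 50.51% with TMM.

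Ndufa3, a small accessory subunit of the proximal membrane arm (GRCm38 chr7:3617373-3620327, plus strand, overlapping Tfpt on the other strand), differed most. Its lowest, median and highest levels were 66.6, 77.7 and 86.2 CPM in NZO/HlLtJ hearts and 97.2, 111 and 125 CPM in C57BL/6J hearts. Every NZO/HlLtJ library lay below every C57BL/6J library, and the log2 fold change was -0.51 ± 0.05 (SE; adjusted p = 9.68e-08). In the other members of that arm, Ndufa13, which is also known as GRIM-19, had 159, 169 and 189 CPM in NZO/HlLtJ and 185, 201 and 225 CPM in C57BL/6J hearts, a change of -0.24 ± 0.04 (adjusted p = 3.10e-05) with overlapping ranges. Ndufa1 was also lower, at -0.18, and Ndufa8, Ndufa10, Ndufa11, Ndufc1, Ndufc2 and Ndufs5 did not pass.

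The accessory subunits of the peripheral arm held the most calls of any class, with 6 of 9 lower and 1 higher. Ndufa6, a LYR-motif protein that binds the acyl carrier protein, had 81.5, 88.2 and 96.4 CPM in NZO/HlLtJ and 98.7, 108 and 115 CPM in C57BL/6J hearts, with no overlap between the strains (log2 fold change -0.26 ± 0.04, adjusted p = 8.97e-05). Ndufa7 had 64.3, 65.9 and 75.6 CPM in NZO/HlLtJ and 74.0, 80.6 and 82.2 CPM in C57BL/6J hearts, and here 1 NZO/HlLtJ library reached into the C57BL/6J range (-0.24 ± 0.04, adjusted p = 0.00028). Ndufa12 had 115, 121 and 135 CPM in NZO/HlLtJ and 133, 140.1 and 149 CPM in C57BL/6J hearts (-0.22 ± 0.04, adjusted p = 0.00054). Ndufa5, Ndufa9 and Ndufs6 were lower by smaller amounts, at -0.17, -0.12 and -0.11. Ndufs4, whose loss in mice and people causes Leigh-like disease, was higher in NZO/HlLtJ hearts, with 126, 138 and 156 CPM against 123, 130.0 and 138 CPM in C57BL/6J hearts (0.11 ± 0.04, adjusted p = 0.026). That call was lost on leaving out any of 7 libraries, namely the NZO/HlLtJ libraries female 10% replicate 2, male 44% replicate 2, female 44% replicate 2 and male 10% replicate 1 and the C57BL/6J libraries male 44% replicate 2, male 10% replicate 2 and female 44% replicate 2, with adjusted p between 0.053 and 0.075. Ndufa2 and Ndufv3 did not pass.

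Of the 7 core subunits 1 passed, Ndufv1, which carries the flavin that accepts electrons from NADH, with 456, 475 and 495 CPM in NZO/HlLtJ and 480, 508 and 537 CPM in C57BL/6J hearts (-0.10 ± 0.03, adjusted p = 0.016). Without TMM factors its change was -0.05 and its adjusted p 0.29. Ndufs1, the largest iron-sulfur subunit of the NADH-oxidising module, had 569, 618 and 678 CPM in NZO/HlLtJ and 628, 636 and 677 CPM in C57BL/6J hearts, and its -0.06 ± 0.03 did not pass (adjusted p = 0.13). Ndufv2, Ndufs3, Ndufs7 and Ndufs8 did not pass, with changes between -0.02 and 0.09.

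In the distal membrane arm Ndufb10 and Ndufb11 were lower, at -0.19 and -0.18, and the other 8 did not pass. Ndufb8 had 292, 306 and 332 CPM in NZO/HlLtJ and 301, 332 and 347 CPM in C57BL/6J hearts (-0.11 ± 0.04, adjusted p = 0.058), and DESeq2 and 4 other settings called it, at adjusted p between 0.026 and 0.047. It was also called without C57BL/6J female 10% replicate 1, NZO/HlLtJ female 10% replicate 2 or either CAST/EiJ male 10% library, at adjusted p between 0.026 and 0.048. Ndufab1 was lower, at -0.16, and so was Ndufa4, at 295, 315 and 350.4 CPM in NZO/HlLtJ and 337, 356 and 370 CPM in C57BL/6J hearts (-0.16 ± 0.03, adjusted p = 0.00086). Ndufa4l2 had 7.13, 8.19 and 10.5 CPM in NZO/HlLtJ and 7.27, 8.17 and 9.34 CPM in C57BL/6J hearts and did not pass (0.03 ± 0.07, adjusted p = 0.76).

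The 7 assembly factors split in direction, with 2 higher and 2 lower. Ndufaf5, which modifies an arginine of Ndufs7 during assembly, had 13.4, 14.6 and 17.0 CPM in NZO/HlLtJ and 10.9, 11.8 and 13.1 CPM in C57BL/6J hearts. It was the 1 member with every NZO/HlLtJ library above every C57BL/6J library (0.33 ± 0.06, adjusted p = 0.00019). Ndufaf2 had 8.63, 10.3 and 12.1 CPM in NZO/HlLtJ and 6.81, 8.08 and 9.18 CPM in C57BL/6J hearts (0.36 ± 0.08, adjusted p = 0.0010), subject to the 80.9% of its sequence that other transcripts share. Ndufaf1, which acts in the assembly of the membrane arm, had 28.3, 31.1 and 32.03 CPM in NZO/HlLtJ and 33.02, 35.4 and 39.3 CPM in C57BL/6J hearts, without overlap (-0.21 ± 0.05, adjusted p = 0.0040). Ndufaf7, a mitochondrial methyltransferase, was lower at -0.18, and Ndufaf3, Ndufaf4 and Ndufaf6 did not pass. Groups without overlap were thus seen for 1 member above and 3 below, against 6.18% and 6.06% of all genes, so neither share stands out from that background.

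Within the identifier ranges that hold both strains, NZO/HlLtJ over C57BL/6J called 0 members in range 2 (794 of all 17203 genes) and 5, all lower, in range 3 (2456 of all 17203 genes). The share of members called was below that of all genes in both ranges. The median log2 fold change of the 45 was -0.09 and -0.12 in those ranges. Ndufa3 stood at -0.55 (adjusted p = 0.052) and -0.64 (adjusted p = 5.84e-05). Ndufa6, Ndufa7 and Ndufa13 were likewise called in range 3 and not in range 2. Ndufaf2, Ndufaf5, Ndufaf1, Ndufs4, Ndufa12, Ndufv1 and Ndufa4, called with all libraries, kept their sign but were called in neither range.

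**Figure D2:**
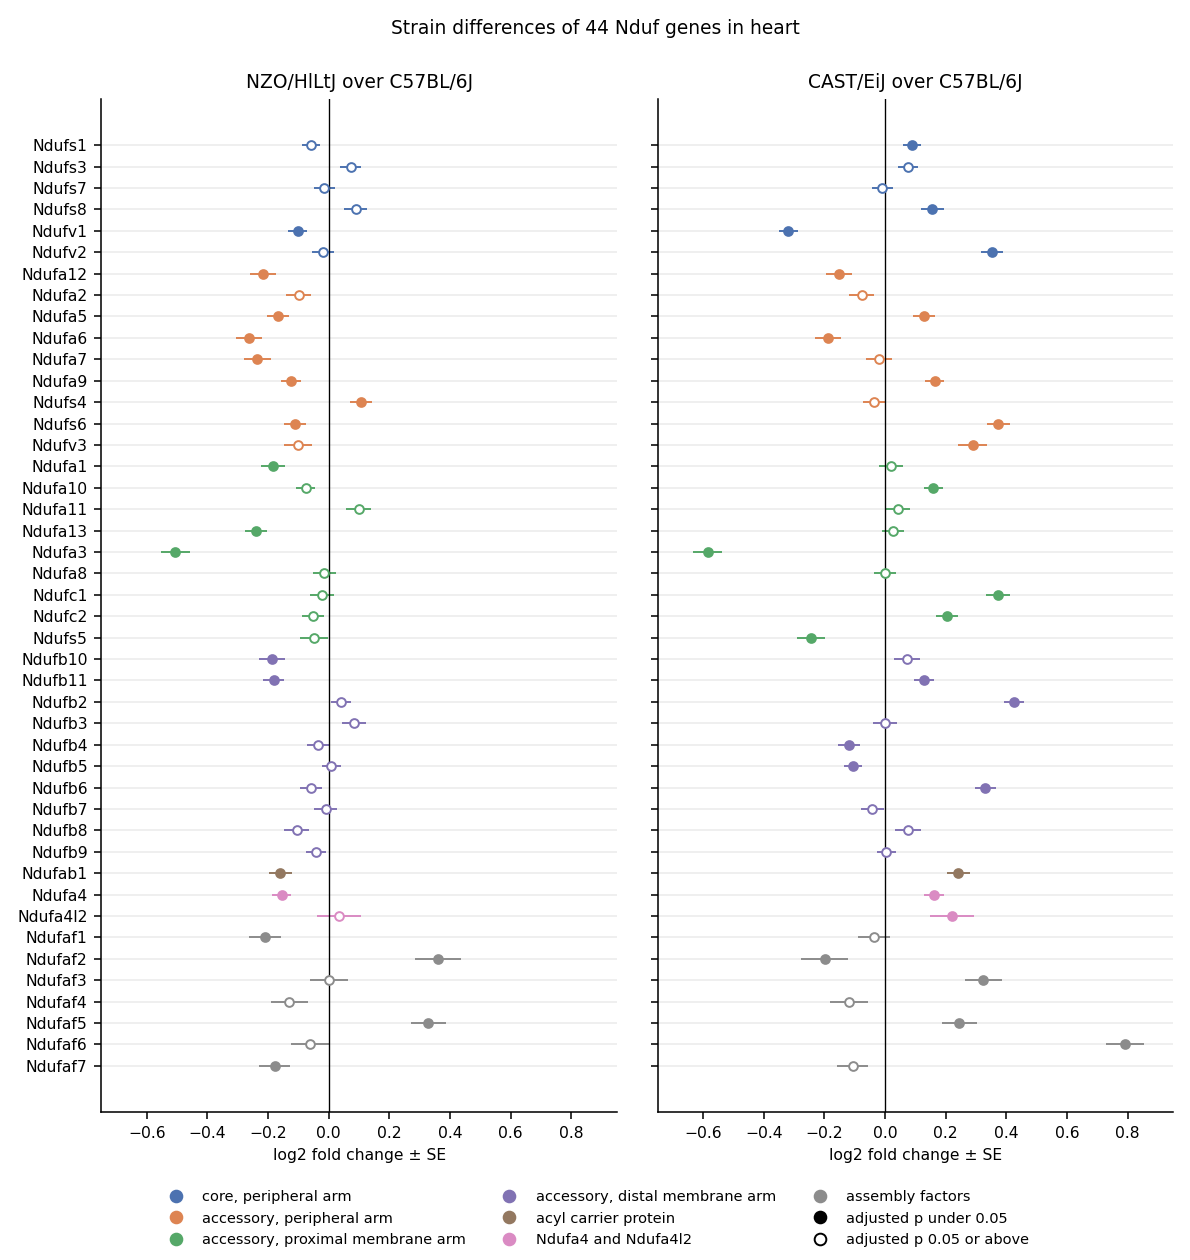
Log2 fold change ± SE of 44 Nduf genes, NZO/HlLtJ over C57BL/6J on the left and CAST/EiJ over C57BL/6J on the right, coloured by role and filled where the adjusted p was under 0.05. On the left most filled points lie below 0 and on the right most lie above it; both comparisons use the same C57BL/6J libraries.

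CAST/EiJ hearts had more RNA of many Nduf genes than C57BL/6J hearts and less of a few. Of the 45, 20 were higher, 8 were lower and 17 did not pass, against 29.1% of all genes higher and 29.7% lower; the Nduf share was above the background for higher calls and below it for lower ones. The median log2 fold change was 0.07, against 0.0011 over all genes, with values between -0.58 and 0.79. Without TMM factors 27 were higher and 4 lower with a median of 0.15, and the share of higher calls among all genes called was 59.95%, against 49.46% with TMM.

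The catalytic core held changes in both directions. Ndufv1 had 361, 404 and 445 CPM in CAST/EiJ and 480, 508 and 537 CPM in C57BL/6J hearts, so that no CAST/EiJ library reached the C57BL/6J range (-0.32 ± 0.03, adjusted p = 5.99e-08). Its partner Ndufv2, which carries an iron-sulfur cluster beside the flavin, had 317, 361 and 384 CPM in CAST/EiJ and 261, 276 and 296 CPM in C57BL/6J hearts, with every CAST/EiJ library above (0.35 ± 0.04, adjusted p = 8.33e-08). Ndufs1 was higher by a small amount, with 633, 690.3 and 729 CPM in CAST/EiJ and 628, 636 and 677 CPM in C57BL/6J hearts (0.09 ± 0.03, adjusted p = 0.017), and its call was lost without CAST/EiJ male 10% replicate 2 or male 44% replicate 2, at adjusted p of 0.055 and 0.053. Ndufs8 was also higher, at 0.16, while Ndufs3 and Ndufs7 did not pass.

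Among the accessory subunits of the peripheral arm, Ndufs6, a zinc-binding subunit, had 154, 179 and 187 CPM in CAST/EiJ and 128, 134 and 141 CPM in C57BL/6J hearts, with no overlap (0.37 ± 0.04, adjusted p = 5.16e-08). Ndufv3, Ndufa9 and Ndufa5 were higher, at 0.29, 0.16 and 0.13. Ndufa6 was lower, with 81.0, 93.6 and 105 CPM in CAST/EiJ and 98.7, 108 and 115 CPM in C57BL/6J hearts (-0.19 ± 0.04, adjusted p = 0.0011), and so was Ndufa12, with 114, 128 and 138 CPM against 133, 140.1 and 149 CPM in C57BL/6J hearts (-0.15 ± 0.04, adjusted p = 0.0047); the Ndufa12 call was lost without TMM factors (adjusted p = 0.096). Ndufs4 did not pass, with 110, 126 and 146 CPM in CAST/EiJ and 123, 130.0 and 138 CPM in C57BL/6J hearts (-0.04 ± 0.04, adjusted p = 0.41), and the sign of its change turned, to 0.04, without TMM factors. Ndufa2 and Ndufa7 did not pass either.

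Membrane-arm subunits followed the same mixed picture. Ndufa3 had 65.4, 72.5 and 85.0 CPM in CAST/EiJ and 97.2, 111 and 125 CPM in C57BL/6J hearts, with every CAST/EiJ library below (-0.58 ± 0.05, adjusted p = 4.34e-09). Ndufs5, a subunit of the intermembrane-space face of that arm, had 72.3, 81.9 and 90.6 CPM in CAST/EiJ and 94.5, 98.7 and 101 CPM in C57BL/6J hearts, also without overlap (-0.24 ± 0.05, adjusted p = 0.00017); 31.1% of its sequence is shared with other transcripts. In the opposite direction Ndufc1 had 81.5, 91.4 and 97.5 CPM in CAST/EiJ and 62.0, 70.7 and 75.7 CPM in C57BL/6J hearts (0.37 ± 0.04, adjusted p = 1.53e-07), and Ndufc2 and Ndufa10 were higher at 0.20 and 0.16. Ndufa1, Ndufa8, Ndufa11 and Ndufa13 did not pass.

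In the distal arm Ndufb2 had 88.8, 98.8 and 109 CPM in CAST/EiJ and 69.0, 73.0 and 77.4 CPM in C57BL/6J hearts (0.43 ± 0.03, adjusted p = 1.81e-09). Ndufb6 had 94.2, 107 and 113 CPM in CAST/EiJ and 81.7, 84.2 and 90.6 CPM in C57BL/6J hearts (0.33 ± 0.04, adjusted p = 2.00e-07). Neither gene had overlapping ranges. Ndufb11 was higher at 0.13, Ndufb4 and Ndufb5 were lower at -0.12 and -0.11, and the other 5 did not pass. One of them, Ndufb8, had 312, 352 and 387 CPM in CAST/EiJ and 301, 332 and 347 CPM in C57BL/6J hearts (0.08 ± 0.04, adjusted p = 0.13); it was called without CAST/EiJ male 10% replicate 2, at 0.036, and without TMM factors, at 0.0037. Ndufab1 was higher, at 0.24. Ndufa4 had 356, 399.7 and 437 CPM in CAST/EiJ and 337, 356 and 370 CPM in C57BL/6J hearts (0.16 ± 0.03, adjusted p = 0.00027). Ndufa4l2 had 7.57, 9.42 and 11.7 CPM in CAST/EiJ and 7.27, 8.17 and 9.34 CPM in C57BL/6J hearts (0.22 ± 0.07, adjusted p = 0.014), a call lost without CAST/EiJ male 10% replicate 2, at 0.053.

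The largest difference of any Nduf gene between CAST/EiJ and C57BL/6J hearts was that of the assembly factor Ndufaf6 (chr4:11051045-11076205, minus strand), which acts in building the membrane arm. Its levels were 10.9, 12.9 and 14.0 CPM in CAST/EiJ and 6.59, 7.03 and 8.32 CPM in C57BL/6J hearts, well apart (0.79 ± 0.06, a fold of 1.73, adjusted p = 2.73e-09). Ndufaf3 and Ndufaf5 were also higher, at 0.32 and 0.24. Ndufaf2 was lower, with 6.68, 6.86 and 7.43 CPM in CAST/EiJ and 6.81, 8.08 and 9.18 CPM in C57BL/6J hearts (-0.20 ± 0.08, adjusted p = 0.035), but the ranges overlap. That call was lost without any of the C57BL/6J libraries female 10% replicate 1, female 44% replicate 1, male 44% replicate 1 and male 10% replicate 2 or the CAST/EiJ libraries female 10% replicate 2, male 10% replicate 2, female 44% replicate 2 and male 44% replicate 2, at adjusted p between 0.061 and 0.11. It was also lost in limma-voom, at 0.066, and without TMM factors, at 0.16. Ndufaf1, Ndufaf4 and Ndufaf7 did not pass. For 10 members every CAST/EiJ library lay above, and for Ndufa3, Ndufs5 and Ndufv1 below, every C57BL/6J library, against 13.2% and 13.8% of all genes.

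Within the 3 identifier ranges CAST/EiJ over C57BL/6J called 20, 3 and 10 members, against 7360, 2735 and 4071 of all 17203 genes. The share of members was close to that of all genes in ranges 1 and 3 and below it in range 2. The fits had medians over the 45 of 0.08, -0.04 and 0.02. The direction of the median therefore did not hold in range 2. Ndufa3 stood at -0.54, -0.66 and -0.74, Ndufv1 at -0.30, -0.37 and -0.49 and Ndufaf6 at 0.77, 0.75 and 0.90 in the 3 ranges, each called in all of them. Ndufs6 stood at 0.39, 0.37 and 0.16 and was called in range 1 alone, as were Ndufc1, Ndufaf2 and Ndufa4. Ndufb2, Ndufv2, Ndufb6 and Ndufs5 were called in ranges 1 and 3 but not in range 2. Ndufa6, Ndufa12, Ndufs1 and Ndufa4l2, called with all libraries, were called in no single range.

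**Figure D3:**
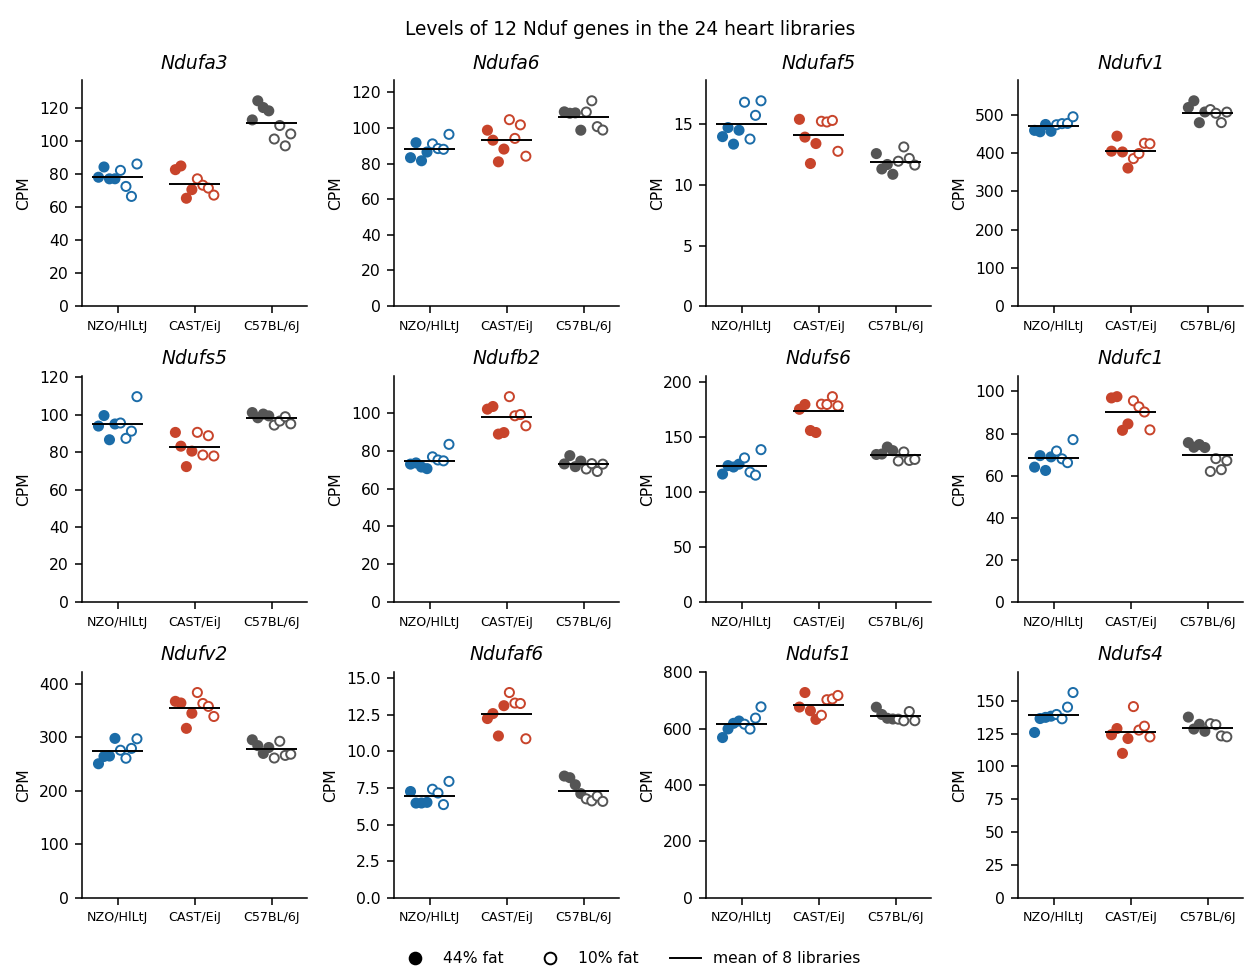
CPM of 12 Nduf genes in each of the 24 libraries, by strain, with filled points for 44% and open points for 10% of fat and a line at the mean of 8 libraries. Ndufa3 is high in C57BL/6J alone, Ndufaf6, Ndufs6, Ndufc1, Ndufb2 and Ndufv2 in CAST/EiJ alone, and Ndufs1 and Ndufs4 overlap between strains.

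Between NZO/HlLtJ and CAST/EiJ hearts, 24 members were lower and 6 higher in NZO/HlLtJ and 15 did not pass, against 29.8% of all genes lower and 30.5% higher; again the Nduf share was above the background in one direction, lower, and below it in the other. The median log2 fold change was -0.17, against 0.0027 over all genes. Lower in NZO/HlLtJ were 3 core subunits, 5 accessory subunits in each of the peripheral, proximal and distal parts, Ndufab1, Ndufa4, Ndufa4l2 and 3 assembly factors. Ndufaf6 led them, with 6.37, 6.84 and 7.96 CPM in NZO/HlLtJ and 10.9, 12.9 and 14.0 CPM in CAST/EiJ hearts (-0.85 ± 0.06, adjusted p = 8.86e-10). Ndufs6 had 115, 123 and 139 CPM in NZO/HlLtJ and 154, 179 and 187 CPM in CAST/EiJ hearts (-0.48 ± 0.04, adjusted p = 1.31e-09). Both were without overlap, as was Ndufab1, with 182, 188 and 196 CPM in NZO/HlLtJ and 219.5, 254 and 264 CPM in CAST/EiJ hearts (-0.40 ± 0.04, adjusted p = 3.38e-08).

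Ndufc1 had 62.5, 68.4 and 77.1 CPM in NZO/HlLtJ and 81.5, 91.4 and 97.5 CPM in CAST/EiJ hearts (-0.39 ± 0.04, adjusted p = 6.62e-08). Ndufb6 had 76.0, 80.7 and 91.6 CPM in NZO/HlLtJ and 94.2, 107 and 113 CPM in CAST/EiJ hearts (-0.39 ± 0.04, adjusted p = 2.05e-08). Ndufv3, a small subunit of the NADH-oxidising module, had 122, 129 and 154 CPM in NZO/HlLtJ and 149, 175 and 187 CPM in CAST/EiJ hearts (-0.39 ± 0.05, adjusted p = 7.71e-07), and its ranges overlap where those of Ndufc1 and Ndufb6 do not. Ndufs1, Ndufb8 and Ndufa4, whose levels stand above, were lower as well, at -0.15 ± 0.03, -0.18 ± 0.04 and -0.32 ± 0.03, with adjusted p of 0.00031, 0.0011 and 8.33e-08. Ndufa4l2 passed at -0.18 (adjusted p = 0.034), but leaving out any of 8 libraries ended the call, with adjusted p between 0.058 and 0.12: these were CAST/EiJ female 10% replicate 1, female 44% replicate 1, male 44% replicate 1 and male 10% replicate 2 and NZO/HlLtJ female 10% replicate 1, male 44% replicate 2, female 44% replicate 1 and male 10% replicate 2. The identifier range as a block ended it too, at 0.055.

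The 6 members higher in NZO/HlLtJ were Ndufaf2, Ndufv1, Ndufs5, Ndufs4, Ndufb5 and Ndufb4. Ndufaf2 had 8.63, 10.3 and 12.1 CPM in NZO/HlLtJ and 6.68, 6.86 and 7.43 CPM in CAST/EiJ hearts (0.56 ± 0.08, adjusted p = 3.98e-06), and Ndufv1 had 456, 475 and 495 CPM in NZO/HlLtJ and 361, 404 and 445 CPM in CAST/EiJ hearts (0.22 ± 0.03, adjusted p = 8.45e-06). These 2 were the members with every NZO/HlLtJ library above every CAST/EiJ library, and 13 lay wholly below, against 14.0% and 12.8% of all genes. Ndufs5 had 86.7, 94.5 and 109.7 CPM in NZO/HlLtJ and 72.3, 81.9 and 90.6 CPM in CAST/EiJ hearts (0.20 ± 0.05, adjusted p = 0.0013). Its ranges overlap, as do those of the other 3. Ndufs4 stood at 0.14 ± 0.04 (adjusted p = 0.0020). Ndufb5, a single-pass membrane subunit, had 195, 199.3 and 217 CPM in NZO/HlLtJ and 170.2, 190.1 and 202 CPM in CAST/EiJ hearts (0.12 ± 0.03, adjusted p = 0.0029). Ndufb4 had 43.5, 46.1 and 50.5 CPM in NZO/HlLtJ and 39.6, 43.1 and 47.4 CPM in CAST/EiJ hearts (0.09 ± 0.04, adjusted p = 0.047). That call was lost on leaving out any of 19 of the 24 libraries, with adjusted p between 0.0502 and 0.14. The 5 that kept it were CAST/EiJ female 10% replicate 1, male 10% replicate 1 and male 44% replicate 2 and NZO/HlLtJ male 44% replicate 2 and female 44% replicate 1. DESeq2 and 4 other settings lost it too, at adjusted p between 0.059 and 0.16. Within identifier ranges 2 and 3, 5 and 23 members were called, against 3602 and 6407 of all 17203 genes, a share below that of all genes in range 2 and above it in range 3. The median was -0.09 and -0.13.

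Neighbouring gene groups were described in the same contrasts. The 46 nuclear-encoded genes of complexes II to V had 20 lower and 3 higher in NZO/HlLtJ over C57BL/6J (median -0.08), 17 higher and 11 lower in CAST/EiJ over C57BL/6J (median 0.05) and 29 lower and 7 higher in NZO/HlLtJ over CAST/EiJ (median -0.14). Of the 7 mitochondrially encoded subunits of complex I itself, all 7 were lower in NZO/HlLtJ over C57BL/6J (median -0.62) and 6 in CAST/EiJ over C57BL/6J (median -0.48). mt-Nd5, for the distal proton-pumping subunit, averaged 12830 ± 1157 CPM in NZO/HlLtJ, 16340 ± 1970 CPM in CAST/EiJ and 24120 ± 1896 CPM in C57BL/6J hearts (SD, n = 8 each). mt-Nd2 averaged 11270 ± 1042 CPM in NZO/HlLtJ, 17210 ± 982 CPM in CAST/EiJ and 16690 ± 1678 CPM in C57BL/6J hearts, and was the 1 subunit that did not pass in CAST/EiJ over C57BL/6J (log2 fold change 0.04, adjusted p = 0.45). In NZO/HlLtJ over CAST/EiJ these subunits split in direction. mt-Nd2 (-0.61), mt-Nd5 (-0.35) and mt-Nd6 (-0.23) were lower, mt-Nd3 (0.92) and mt-Nd4l (0.21) were higher, and mt-Nd1 and mt-Nd4 did not pass.

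Complex I assembly factors with other symbols, of which 10 of the 13 listed passed the filter, had 6 lower and 4 that did not pass in NZO/HlLtJ over C57BL/6J and 5 higher and 3 lower in CAST/EiJ over C57BL/6J. Tmem126b, a membrane protein of the assembly complex, stood at -0.39 (adjusted p = 6.31e-06) in NZO/HlLtJ over C57BL/6J, and Nubpl, which delivers iron-sulfur clusters, at -0.24 (adjusted p = 0.0046) there and at 0.29 (adjusted p = 0.00036) in CAST/EiJ over C57BL/6J. Of 9 regulators of mitochondrial genes, Ppargc1a, the coactivator PGC-1alpha, was the 1 called in NZO/HlLtJ over C57BL/6J. It averaged 95.6 ± 12.1 CPM in NZO/HlLtJ, 111 ± 25.9 CPM in CAST/EiJ and 158 ± 19.7 CPM in C57BL/6J hearts (SD, n = 8 each), with log2 fold changes over C57BL/6J of -0.72 (adjusted p = 0.00032) and -0.50 (adjusted p = 0.0024). Esrra, an orphan nuclear receptor that acts with it, was higher in CAST/EiJ over C57BL/6J at 0.14 (adjusted p = 0.014), and so was Tfam, which packages and transcribes mitochondrial DNA, at 0.15 (adjusted p = 0.0070); Esrra was also lower in NZO/HlLtJ over CAST/EiJ, at -0.19 (adjusted p = 0.0012). Nrf1, Gabpa, Yy1, Esrrb, Esrrg and Ppargc1b did not pass in any of the 3 strain contrasts.

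Markers of other cell types also differed between strains. All 8 fibroblast markers were higher in NZO/HlLtJ over C57BL/6J (median 0.61) and 7 of 8 in NZO/HlLtJ over CAST/EiJ; their sum ran between 1541 and 1911 CPM in NZO/HlLtJ, between 967 and 1310 CPM in CAST/EiJ and between 1101 and 1205 CPM in C57BL/6J libraries. The sum of 6 smooth muscle and pericyte markers ran between 690.3 and 818 CPM in NZO/HlLtJ, between 485 and 607 CPM in CAST/EiJ and between 726 and 912 CPM in C57BL/6J libraries. The 4 red blood cell markers summed to between 4456 and 25250 CPM in NZO/HlLtJ, between 4256 and 21470 CPM in CAST/EiJ and between 2841 and 8598 CPM in C57BL/6J libraries. The part of these cells in the Nduf values was not tested. The 10 cardiomyocyte markers had 2 higher and 3 lower in NZO/HlLtJ over C57BL/6J and 2 higher and 4 lower in CAST/EiJ over C57BL/6J.

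The diet changed no Nduf gene detectably. Across all strains, 0 of the 45 passed for 44% against 10% of fat in edgeR, against 0.157% of all genes (27 genes), and 3 had an unadjusted p under 0.05, against 8.81% of all genes. The median log2 difference over the 45 was -0.03, against -0.04 without TMM factors and -0.01 without NZO/HlLtJ female 10% replicate 2. DESeq2, limma-voom and limma on the deposited transformed values called 0 as well. The smallest p-values belonged to Ndufa3 at 0.10 (adjusted p = 0.42), Ndufaf5 at -0.11 (adjusted p = 0.48) and Ndufb9 at -0.06 (adjusted p = 0.49) on the log2 scale. Within single strains edgeR called 0 members each time, against 0% of all genes in NZO/HlLtJ, 0% in CAST/EiJ and 0.0407% in C57BL/6J, and the 3 other tools called 0 there too. At an unadjusted p under 0.05 there were 3 members in NZO/HlLtJ, 4 in CAST/EiJ and 3 in C57BL/6J, against 7.17%, 6.61% and 5.61% of all genes in these strains, so the members' shares were close to those of all genes.

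The small changes leaned negative in NZO/HlLtJ and CAST/EiJ and positive in C57BL/6J. In NZO/HlLtJ 41 of 45 log2 fold changes were negative (median -0.07, against -0.0056 over all genes), in CAST/EiJ 38 were negative (median -0.04, against -0.0061) and in C57BL/6J 39 were positive (median 0.05, against -0.0029). The genes share libraries and are not independent, so these counts carry no test. Without TMM factors the C57BL/6J median was 0.01, and the CAST/EiJ median was -0.08 in the fit that blocked on identifier range. Without NZO/HlLtJ female 10% replicate 2 the NZO/HlLtJ median was -0.03, and without replicate 1 of that group it was -0.10. In CAST/EiJ it was -0.02 without female 10% replicate 1 and -0.08 without female 44% replicate 2. The summed level of the 45 was 6822, 7022, 7152 and 7287 CPM on 44% and 7080, 7222, 7286 and 7876 CPM on 10% of fat in NZO/HlLtJ hearts, and 7614, 7668, 7880 and 7893 CPM on 44% and 7413, 7418, 7534 and 7794 CPM on 10% in C57BL/6J hearts. In both strains the diets overlap. In CAST/EiJ hearts it was 7423, 7719, 8259 and 8436 CPM on 44% and 7829, 8091, 8338 and 8438 CPM on 10%, with the female libraries on 44% lowest. Over the same libraries the 10 cardiomyocyte markers had 9 negative changes in NZO/HlLtJ (median -0.11), 8 in CAST/EiJ (median -0.05) and 8 in C57BL/6J (median -0.02), and all 8 macrophage markers were negative in NZO/HlLtJ (median -0.23) and in C57BL/6J (median -0.14); their part in the Nduf values was not tested.

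In NZO/HlLtJ hearts the 3 members with the smallest p were Ndufb6, Ndufb2 and Ndufa8. Ndufb6 had 76.0, 76.5, 77.4 and 79.7 CPM on 44% and 81.7, 83.7, 83.9 and 91.6 CPM on 10% of fat (log2 fold change -0.14 ± 0.05, adjusted p = 0.62). Ndufb2 had 70.5, 71.4, 72.9 and 73.5 CPM on 44% and 74.6, 75.1, 76.8 and 83.4 CPM on 10% (-0.10 ± 0.05, adjusted p = 0.68). Ndufa8, a subunit held in the intermembrane space by disulfide bonds, had 186, 188, 194 and 199.6 CPM on 44% and 198, 202, 209 and 222 CPM on 10% (-0.11 ± 0.05, adjusted p = 0.68).

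In CAST/EiJ hearts they were Ndufa4, Ndufs6 and Ndufs4. Ndufa4 had 356, 364, 398 and 409 CPM on 44% and 397, 402, 412 and 437 CPM on 10% of fat (-0.11 ± 0.05, adjusted p = 0.68). Ndufs6 had 154, 156, 175 and 179.6 CPM on 44% and 178, 179.6, 179.9 and 187 CPM on 10% (-0.13 ± 0.05, adjusted p = 0.69), and its low values were those of the females on 44%. Ndufs4 had 109.9, 121, 124 and 129 CPM on 44% and 122, 128, 131 and 146 CPM on 10% (-0.12 ± 0.05, adjusted p = 0.69).

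In C57BL/6J hearts they were Ndufc1, Ndufa3 and Ndufaf6, all with positive changes. Ndufc1 had 73.3, 73.5, 74.8 and 75.7 CPM on 44% and 62.0, 62.8, 67.1 and 68.1 CPM on 10% of fat (0.19 ± 0.06, adjusted p = 0.47). Ndufa3 had 113, 119, 121 and 125 CPM on 44% and 97.2, 101, 105 and 109.6 CPM on 10% (0.21 ± 0.07, adjusted p = 0.61). Ndufaf6 had 7.12, 7.73, 8.21 and 8.32 CPM on 44% and 6.59, 6.62, 6.76 and 6.95 CPM on 10% (0.22 ± 0.09, adjusted p = 0.82). These 3 were picked for the smallest p, so the gap between their diets is no further evidence. None passed the adjustment over 17203 genes.

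The difference in diet effect between strains was tested as an interaction. NZO/HlLtJ minus C57BL/6J gave 44 of 45 negative values (median -0.10), and edgeR called 0 members, against 0.00581% of all genes (1 gene); 6 had an unadjusted p under 0.05, against 4.76% of all genes. CAST/EiJ minus C57BL/6J gave 42 negative values (median -0.10) with 0 called, 0% of all genes and 9 at an unadjusted p under 0.05, against 6.53% of all genes. Without TMM factors both medians were -0.07, and the second was -0.06 without CAST/EiJ female 10% replicate 1. NZO/HlLtJ minus CAST/EiJ gave a median of -0.01, 0 called, 0% of all genes and 0 at an unadjusted p under 0.05, against 4.65% of all genes, and that median ran between -0.05 and 0.02 as libraries were left out. DESeq2 and both limma fits called 0 in each. The first and second of these share the C57BL/6J libraries. Counts of signs and of unadjusted p carry no test here either, because the genes share libraries. Within the 3 identifier ranges the diet effect over the strains had medians of -0.02, -0.05 and 0.06 over the 45, so its sign in range 3, where every CAST/EiJ library is on 44%, differed from that of the pooled -0.03, and 0 members were called in each.

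**Figure D4:**
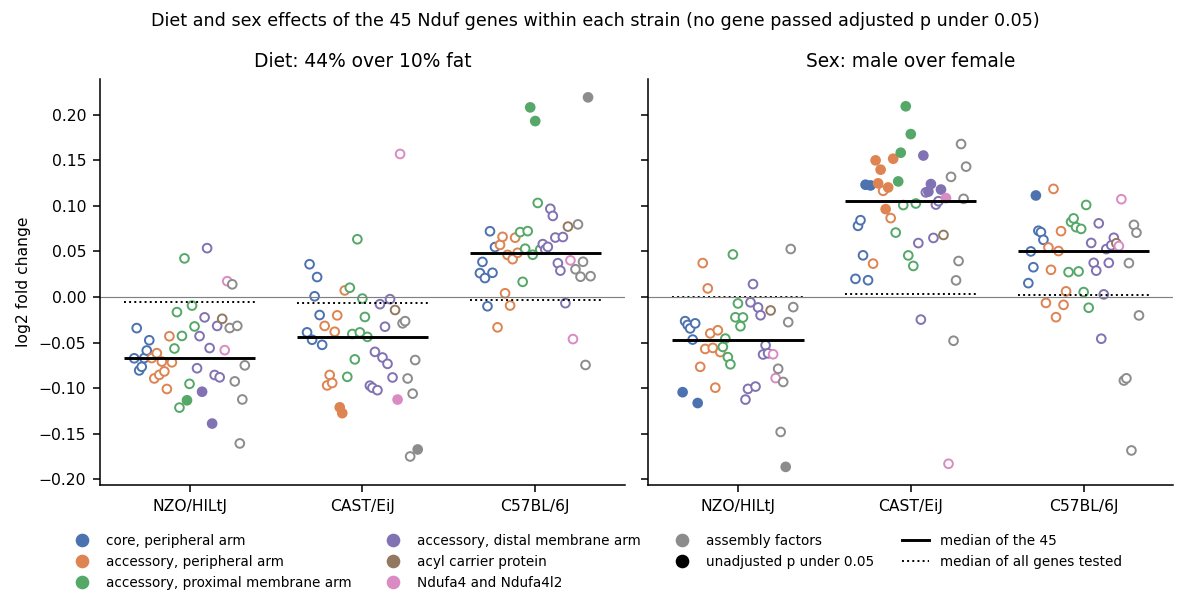
Log2 fold change of the 45 Nduf genes within each strain for 44% over 10% of fat (left) and male over female (right), coloured by role and filled at an unadjusted p under 0.05. Solid lines are the medians of the 45 and dotted lines those of all genes tested; for diet the medians are -0.07, -0.04 and 0.05 and for sex -0.05, 0.10 and 0.05 in NZO/HlLtJ, CAST/EiJ and C57BL/6J.

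Sex changed no Nduf gene past the threshold either. Male over female, 0 of 45 passed over all strains in edgeR, against 0.372% of all genes (64 genes), with 6 at an unadjusted p under 0.05, against 8.95% of all genes. Ndufa6 stood at 0.09 (adjusted p = 0.46), Ndufa2 at 0.08 (adjusted p = 0.48) and Ndufa3 at 0.09 (adjusted p = 0.48), the 3 smallest p-values. Within strains edgeR called 0 members, against 0.134% of all genes in NZO/HlLtJ, 0.0872% in CAST/EiJ and 0.145% in C57BL/6J. DESeq2 and both limma fits called 0 in these 4 comparisons.

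In CAST/EiJ hearts most members leaned the same way, and 42 of 45 were higher in males (median 0.10, against 0.0029 over all genes). At an unadjusted p under 0.05 there were 17, all of them higher, against 4.46% of all genes higher at that level. As for diet, the genes share libraries and are not independent, so these counts and those for the other strains below carry no test. The summed level of the 45 was 8091, 8259, 8436 and 8438 CPM in male and 7423, 7719, 7829 and 8338 CPM in female CAST/EiJ hearts. Only the female library on 10% of fat with 8338 CPM reached the male range. Ndufb2 had 98.5, 102, 103 and 109 CPM in males and 88.8, 89.6, 93.2 and 99.1 CPM in females (0.16 ± 0.05, adjusted p = 0.37). Ndufc1 had 92.7, 95.5, 96.9 and 97.5 CPM in males and 81.5, 81.7, 84.6 and 90.2 CPM in females (0.18 ± 0.06, adjusted p = 0.39). Ndufa3 had 73.4, 77.2, 82.8 and 85.0 CPM in males and 65.4, 67.3, 70.7 and 71.6 CPM in females (0.21 ± 0.07, adjusted p = 0.40). The cardiomyocyte markers summed to between 71140 and 76220 CPM in male and between 63930 and 79080 CPM in female CAST/EiJ libraries, and their part was not tested.

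In NZO/HlLtJ hearts 40 of 45 were lower in males (median -0.05, against -0.00019 over all genes), with 3 at an unadjusted p under 0.05, against 7.03% of all genes. The median was -0.0048 without female 10% replicate 2 and -0.08 without female 10% replicate 1, and -0.02 without TMM factors. Ndufs1 had 569, 599.0, 599.6 and 616 CPM in males and 619, 628, 638 and 678 CPM in females (-0.10 ± 0.04, adjusted p = 0.66). Ndufv2 had 251, 261, 264 and 276 CPM in males and 265, 279, 297 and 298 CPM in females (-0.12 ± 0.05, adjusted p = 0.67). Ndufaf4, an assembly factor of the ubiquinone module, had 43.1, 46.0, 48.3 and 50.6 CPM in males and 52.1, 52.7, 53.6 and 55.4 CPM in females (-0.19 ± 0.09, adjusted p = 0.71). Of the cardiomyocyte markers 9 of 10 were likewise lower in NZO/HlLtJ males (median -0.13), and their sum ran between 64760 and 72870 CPM in male and between 71230 and 79670 CPM in female libraries; the part of this in the Nduf values was not tested.

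In C57BL/6J hearts 36 of 45 were higher in males (median 0.05, against 0.0020 over all genes), with 1 at an unadjusted p under 0.05, against 6.27% of all genes. That was Ndufs7, a core subunit with the last iron-sulfur cluster before ubiquinone, with 165, 169, 171 and 177 CPM in males and 151, 157, 161 and 162 CPM in females (0.11 ± 0.05, adjusted p = 0.79). Ndufc2 had 71.6, 76.0, 77.6 and 81.7 CPM in males and 68.8, 69.5, 70.9 and 77.0 CPM in females (0.10 ± 0.05, adjusted p = 0.81), with overlap. Ndufa6 had 108, 108.9, 109.0 and 115 CPM in males and 98.7, 98.8, 101 and 108 CPM in females (0.12 ± 0.06, adjusted p = 0.81).

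The difference in sex effect between NZO/HlLtJ and CAST/EiJ was negative for 44 of 45 members (median -0.15), and 16 had an unadjusted p under 0.05, against 4.06% of all genes lower at that level. Such counts carry no test here either, because the genes share libraries. No member passed the adjustment (0 in edgeR, 0 in DESeq2 and in both limma fits, against 0% of all genes; smallest adjusted p = 0.41). NZO/HlLtJ minus C57BL/6J had a median of -0.09 with 0 called, 0% of all genes and 2 at an unadjusted p under 0.05, against 4.63% of all genes. CAST/EiJ minus C57BL/6J had a median of 0.05 with 0 called, 0% of all genes and 3 at an unadjusted p under 0.05, against 5.95% of all genes. Without TMM factors the medians for NZO/HlLtJ minus CAST/EiJ and for CAST/EiJ minus C57BL/6J were -0.09 and 0.02, and CAST/EiJ minus C57BL/6J was 0.03 in the fit that blocked on range. CAST/EiJ minus C57BL/6J was 0.02 without CAST/EiJ female 10% replicate 2 and 0.08 without female 10% replicate 1. In NZO/HlLtJ each identifier range holds the females of one diet and the males of the other, so range and the interaction of sex with diet cannot be told apart in that strain. In CAST/EiJ range 2 holds 10% libraries and range 3 holds 44% libraries alone, and in C57BL/6J range 2 holds males and range 3 females alone; range 1 holds 1 library of every group of both strains. Over the strains the median sex effect of the 45 was 0.08, 0.00 and 0.09 in the 3 ranges, against 0.03 pooled.

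**Figure D5:**
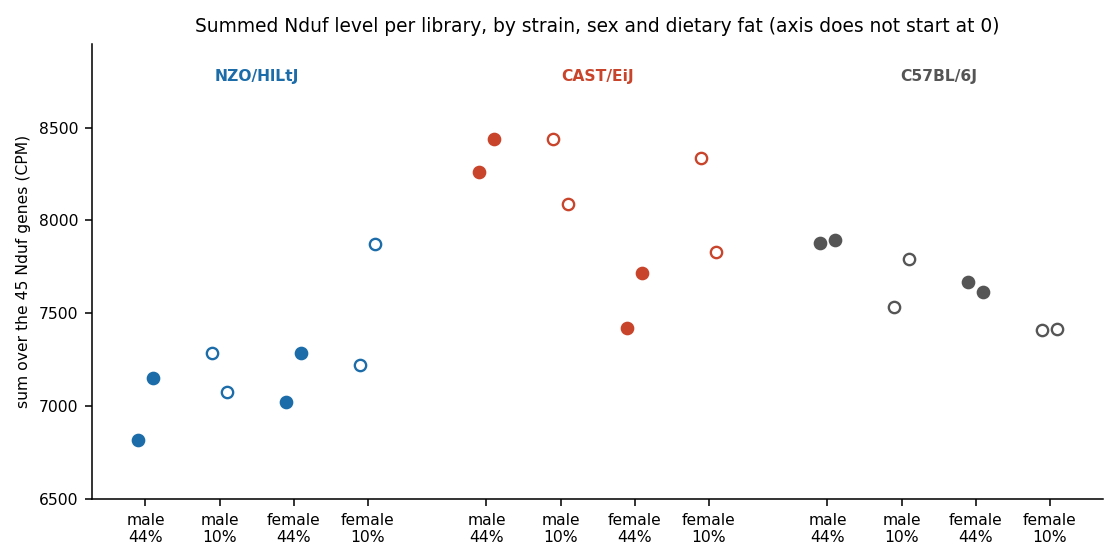
Sum of the 45 Nduf genes in CPM for each of the 24 libraries, by strain, sex and diet, with filled points for 44% and open points for 10% of fat on an axis that does not start at 0. NZO/HlLtJ libraries lie between 6822 and 7876, CAST/EiJ between 7423 and 8438 and C57BL/6J between 7413 and 7893.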

How the data were processed

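PolyA RNA from whole heart was measured in 24 libraries. The authors deposited an estimated count per gene and library, as the values show: 19.3% of the entries are not whole (tolerance 1e-06), and they were rounded before testing. A second deposited table holds variance-stabilised values on a log2 scale, used in 1 alternative. The submitters' processing notes name GRCm38 and DESeq2, without versions. No source used here names the aligner, the counter, its strand setting or the genome used for each strain. Positions and other annotation values were deposited by the authors in Mb; exon lengths and overlaps came from GENCODE M21.

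Genes were filtered with edgeR 4.0.16 (R 4.3.3) over the 12 groups (minimum count 10, minimum total 15), which kept 17203 genes and removed 3758. Counts were scaled by TMM and fitted with a quasi-likelihood model with 1 mean per group, over all 24 libraries, and 17 contrasts were adjusted by the Benjamini-Hochberg method over all genes tested; the threshold was an adjusted p of 0.05. Strain contrasts average over sex and diet. CPM use the TMM-scaled library sizes. The procedure was also run on simulated counts, but how often it found changes of known size is not given here. With 30205073 to 52254058 counts a library, the lowest member lay well above the filter.

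Members and lists were chosen with earlier results of these data known. Full values were given for up to 6 called members per direction and strain contrast with the largest change and a mean of at least 1 CPM, for every member called for diet or sex (there were 0), for the 3 members of smallest p in each diet or sex contrast without a call, and always for Ndufv1, Ndufs1, Ndufs4, Ndufb8, Ndufa4, Ndufa4l2 and Ndufaf2. The results of 1 further gene, which enters the counts and sums, are not reported here. Alternatives were DESeq2 1.42.0, limma 3.58.1 (voom, and on the deposited log2-scale values), median-ratio size factors, library totals without TMM, mitochondrially encoded genes left out, no filter, a mean of at least 1 CPM, the identifier range as a block, the strains of a contrast alone, and each library left out in turn; fits within each range, with strain, sex and diet as additive terms, were chosen after seeing the data.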

Additional observations from a re-analysis of the deposited data

Results flagged for a closer look

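Within strains, and within each diet or sex of a strain, 219 groups of 4 or 8 libraries were searched for a library far from its neighbours, by Dixon's test, and 13 had one; chance gives about 1 in 20 groups. NZO/HlLtJ female 10% replicate 2 was the highest of its 8 libraries in 4 of these. It had a sum over the 45 genes of 7876 CPM, where the next library had 7287 CPM. It had 188.8 CPM of Ndufa13 (next 172.4), 75.59 CPM of Ndufa7 (next 67.55) and 153.9 CPM of Ndufv3 (next 136.1).

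Among 4 NZO/HlLtJ libraries on 44% of fat, male replicate 2 had 84.42 CPM of Ndufa3 (next 78.19), and male replicate 1 had 7.264 CPM of Ndufaf6 (next 6.523) and only 125.8 CPM of Ndufs4 (next 136.4). In CAST/EiJ, female 44% replicate 1 was lowest for Ndufa8 at 180.9 CPM (next 203) and female 10% replicate 2 was lowest for Ndufaf5 at 12.78 CPM (next 15.2), each within its diet. In C57BL/6J, male 44% replicate 2 was highest for Ndufa8 on that diet at 212.1 CPM (next 202.8) and for Ndufaf4 among males at 59.46 CPM (next 49.41). C57BL/6J male 10% replicate 2 was highest for Ndufa6 among males at 115.2 CPM (next 109) and for Ndufs6 on 10% of fat at 136.4 CPM (next 129.6).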

How the results depend on the processing

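No paired analysis was possible because replicate numbers were given in accession order and pair nothing across groups. Leaving out each of the 24 libraries in turn gave between 17 and 23 members called in NZO/HlLtJ over C57BL/6J (19 with all libraries), between 26 and 30 in CAST/EiJ over C57BL/6J (28) and between 28 and 31 in NZO/HlLtJ over CAST/EiJ (30). Fits within a single identifier range hold fewer libraries. In NZO/HlLtJ over C57BL/6J they called 0 and 5 members (ranges 2 and 3), against 794 and 2456 of all 17203 genes. In CAST/EiJ over C57BL/6J they called 20, 3 and 10 (ranges 1 to 3), against 7360, 2735 and 4071. In NZO/HlLtJ over CAST/EiJ they called 5 and 23 (ranges 2 and 3), against 3602 and 6407. The sign turned for members that moved little. Ndufa4l2 in NZO/HlLtJ over C57BL/6J lay between -0.013 and 0.0746 as libraries were left out, negative without NZO/HlLtJ female 44% replicate 2, and was -0.0524 in range 2. In CAST/EiJ over C57BL/6J, Ndufs4 was 0.0406 without TMM factors, Ndufs1 was -0.0034 in range 3 and Ndufb8 was -0.0755 in range 2. Ndufb9 for diet over all strains was 0.0478 in range 3. The cause was not tested. With 2 libraries in each group, diet and sex effects within a strain rest on 4 libraries against 4.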
